A study of Mus musculus with 10 samples.

Results

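Rec8 and the genes of the cohesin complex were followed in the hippocampus of Dp1Tyb mice, a model of Down syndrome. The group held 10 of the 43629 genes in the count table: Rec8, Rad21, Smc1a, Smc1b, Smc3, Stag1, Stag2, Stag3, Nipbl and Wapl, matched by Ensembl ID to their symbols in the GRCm38 annotation. Rec8 was chosen by its measured decrease between Dp1Tyb and WT outside the duplicated segment of chromosome 16, so its difference is given as a description with no test. The other 9 genes were selected for their role in the complex, with earlier results of these data known. RNA was sequenced from the whole hippocampus of 10 adult mice, 5 WT and 5 Dp1Tyb, with 1 library per mouse. Dp1Tyb mice carry the Dp(16Lipi-Zbtb21)1TybEmcf duplication, which adds a copy of the chromosome 16 segment between Lipi and Zbtb21, and the WT mice were littermates without it. Both genotypes shared the C57BL/6J.129P2 strain name, the age of 18 weeks given in the labels and, by the methods of the study, male sex. The methods give a slightly higher age than the labels. The duplication was present in every cell of the animal and held many genes at once, so no difference below can be assigned to a single duplicated gene. None of the 10 genes lies in the duplicated segment.

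Cohesin is a ring of an SMC1 subunit, SMC3 and a kleisin that closes the ring, with a STAG subunit bound to the kleisin. It holds sister chromatids together in dividing cells, and in non-dividing cells such as neurons it extrudes chromatin loops. RAD21 is the kleisin of somatic cells, whereas REC8 is a kleisin of germ cells, in which it works with the meiotic subunits SMC1B and STAG3. NIPBL loads cohesin onto DNA, and WAPL releases it.

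The promoters of the 3 meiotic subunits are shown because Rec8 was the member that differed between the genotypes, and that of Six6os1, a meiosis gene annotated as 4930447C04Rik, because it rose in Dp1Tyb. Each is the RefSeq window from 250 bases before to 50 bases from the start site in GRCm38.p6, printed 5′ to 3′ on the strand of the gene. These start sites can differ from the annotated gene spans given elsewhere. The whole Stag3 window lies within the annotated span of Stag3, which begins at position 138280240. The RefSeq start site of Rec8 likewise lies within the span of Rec8, which begins at position 55618037. Capitals mark 3 motifs searched on both strands: CCAAT, the letters bound by NF-Y, then TCCCGC, the core of an E2F6 site, and lastly CACGTG, an E-box. A match on the reverse strand appears as its reverse complement, and no 2 matches share a base. Such E2F6 sites and E-boxes are known from germline genes that are silenced in somatic cells.
Rec8, chr14:55617916-55618215, + strand: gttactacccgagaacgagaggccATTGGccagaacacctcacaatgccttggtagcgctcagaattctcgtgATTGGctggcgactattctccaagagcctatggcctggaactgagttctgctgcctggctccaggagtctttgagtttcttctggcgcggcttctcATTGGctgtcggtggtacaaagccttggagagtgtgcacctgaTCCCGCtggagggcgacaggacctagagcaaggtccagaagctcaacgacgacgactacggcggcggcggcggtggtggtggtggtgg
Smc1b, chr15:85131908-85132207, - strand: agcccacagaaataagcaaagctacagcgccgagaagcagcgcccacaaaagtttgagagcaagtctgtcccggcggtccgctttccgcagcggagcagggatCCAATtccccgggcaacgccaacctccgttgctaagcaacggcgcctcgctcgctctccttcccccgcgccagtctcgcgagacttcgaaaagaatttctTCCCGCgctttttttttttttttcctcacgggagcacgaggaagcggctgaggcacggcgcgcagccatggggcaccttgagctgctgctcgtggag
Stag3, chr5:138280259-138280558, + strand: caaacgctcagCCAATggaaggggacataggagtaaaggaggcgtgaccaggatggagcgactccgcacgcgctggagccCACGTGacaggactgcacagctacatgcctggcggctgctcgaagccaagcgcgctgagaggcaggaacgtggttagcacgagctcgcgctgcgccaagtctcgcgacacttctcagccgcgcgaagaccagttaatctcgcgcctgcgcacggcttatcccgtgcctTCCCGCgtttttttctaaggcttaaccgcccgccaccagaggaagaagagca
Six6os1, chr12:72917716-72918015, - strand: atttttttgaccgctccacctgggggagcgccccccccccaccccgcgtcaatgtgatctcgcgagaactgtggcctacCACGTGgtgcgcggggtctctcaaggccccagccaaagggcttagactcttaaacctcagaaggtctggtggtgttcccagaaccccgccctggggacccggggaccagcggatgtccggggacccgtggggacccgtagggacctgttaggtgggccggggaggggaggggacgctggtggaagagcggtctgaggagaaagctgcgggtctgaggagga

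The Rec8 window held 3 CCAAT motifs and 1 TCCCGC motif, and its G and C bases made up 58.3% of it. The windows of Smc1b and Stag3 each held 1 CCAAT and 1 TCCCGC motif, and CACGTG was found in Stag3 and Six6os1. Among all 32851 windows in the RefSeq table, 37.4% held CCAAT, 19.98% held TCCCGC and 7.15% held CACGTG. At least 3 CCAAT motifs, as in Rec8, were found in 3.37% of the windows. Windows were found for 7 of the 10 members, and those of Rad21, Stag2 and Nipbl were not used here. TCCCGC was found in 6 of these 7 windows, so it was not restricted to the meiotic subunits. A match describes the letters only, and binding was not measured.

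Total counts ranged from 18227684 to 43692270 per library. All 8 markers of hippocampal neurons were detected in every library, with a mean level of 6.81 to 7.05 log2 CPM (counts scaled to library size), and the neuronal list lay between 9.81 and 9.96. The libraries differed most in markers of the choroid plexus, the epithelium that makes cerebrospinal fluid and adjoins the hippocampus. The mean level of its 10 markers was 4.68, 2.66, 5.94, 5.47 and 5.88 log2 CPM in WT replicates 1 to 5. In Dp1Tyb replicates 1 to 5 it was 0.40, 4.16, 5.51, 0.51 and 5.57. The summed level of the list ranged from 431 to 5426 CPM in WT and from 38.9 to 3927 CPM in Dp1Tyb, and none of the 10 markers was at 0 in any library. WT replicate 2 and Dp1Tyb replicates 1 and 4 thus held the least choroid plexus RNA, and results are given with and without these 3 libraries where they move together. Of the other marker lists, the astrocyte list did not overlap between the genotypes, at 7.50 to 7.59 log2 CPM in WT and 7.65 to 7.73 in Dp1Tyb. By edgeR, 1 of its 4 markers was called higher, beside 0.87% of all genes tested. Taken singly, 3.68% of all genes tested did not overlap between the genotypes. The part of the astrocyte list difference in the values of the cohesin genes was not tested.

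The first comparison asked how Rec8 differed between the genotypes. Rec8 (ENSMUSG00000002324, chromosome 14, positions 55618037 to 55625395, plus strand) was lower in all 5 Dp1Tyb mice than in all 5 WT mice. Its level in WT replicates 1 to 5 was 4.42, 2.83, 5.42, 3.81 and 5.04 CPM, from 142, 68, 100, 126 and 108 counts. Its level in Dp1Tyb replicates 1 to 5 was 1.12, 1.64, 2.16, 1.45 and 1.28 CPM, from 49, 47, 54, 48 and 28 counts. The groups did not overlap, and WT replicate 2 was the lowest WT library. The means were 4.30 ± 1.03 CPM in WT and 1.53 ± 0.40 CPM in Dp1Tyb (mean ± SD of 5 mice each), a log2 fold change of −1.49 ± 0.20 (SE), or 0.355 times the WT level. The coefficient of variation between mice was 23.9% in WT and 26.2% in Dp1Tyb, where counting alone would give 9.89% and 15.3%. No other annotated gene overlaps Rec8, so no reads are shared by annotation.

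**Figure D1:**
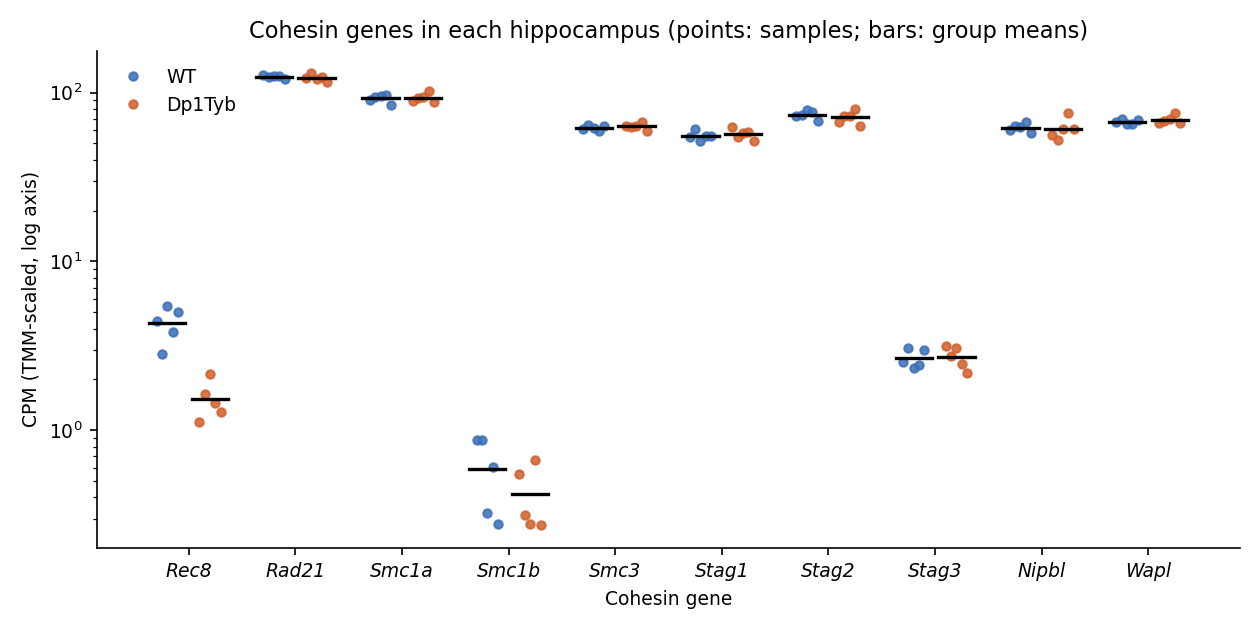
CPM of the 10 cohesin genes in each library (log axis), with WT in blue, Dp1Tyb in orange, 1 point per mouse and a black bar at the mean of each group of 5. The Rec8 points separate by genotype, from 2.83 to 5.42 in WT and from 1.12 to 2.16 in Dp1Tyb, while the points of the other 9 genes overlap.

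Rec8 was set beside the other decreases that the same contrast found. Of the 17237 genes tested by edgeR, 191 were called at an adjusted p under 0.05, a share of 1.11%, with 41 lower (0.238%) and 150 higher (0.87%) in Dp1Tyb. Among the genes called lower outside the duplicated segment, 1 gene fell more than Rec8, with Tbx1, a T-box transcription factor on chromosome 16, at −1.97 ± 0.24 (log2, SE) and a mean of only 0.787 CPM. Tbx1 falls outside the naming rule and was chosen after its values were seen. The next decreases after Rec8 were Cyp11a1, which makes pregnenolone from cholesterol, at −1.04 ± 0.21 and Gm17322 at −0.91 ± 0.16. A further 4 genes that were not called had a more negative estimate than Rec8. Rec8 thus had the most negative fold change of the called genes outside the segment with a mean of at least 1 CPM, not of all genes.

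Rec8 was then read beside the choroid plexus level, since the 3 libraries poorest in that tissue included the lowest WT library and the lowest Dp1Tyb library for Rec8. In the 7 libraries with more choroid plexus RNA, Rec8 was between 3.81 and 5.42 CPM in 4 WT mice and between 1.28 and 2.16 CPM in 3 Dp1Tyb mice. In the other 3 libraries it was 2.83 CPM in WT replicate 2, 1.12 CPM in Dp1Tyb replicate 1 and 1.45 CPM in Dp1Tyb replicate 4. Every WT value lay above every Dp1Tyb value over all libraries, so any split of the libraries would separate the genotypes. Without the 3 libraries the log2 fold change was −1.45 ± 0.20 (SE), and with the choroid plexus level as a covariate it was −1.25 ± 0.19. In bulk tissue, fewer cells of a type and less RNA per cell cannot be told apart.

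**Figure D2:**
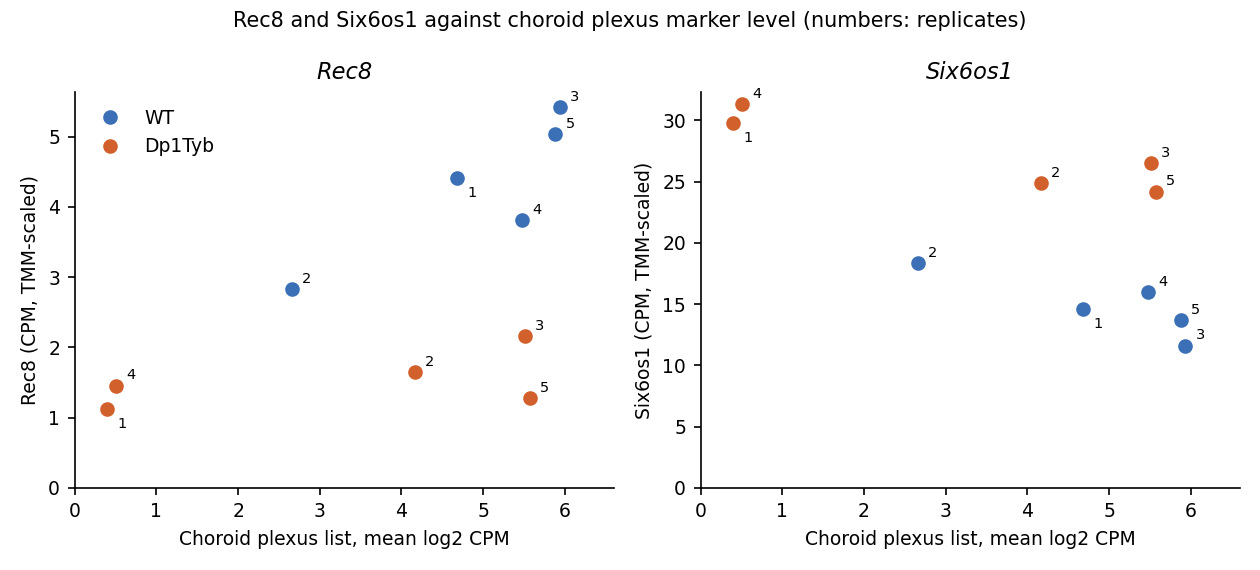
Level of Rec8 (left) and Six6os1 (right) in CPM against the mean log2 CPM of 10 choroid plexus markers, 1 point per library, labelled by replicate number. At a marker level above 4, WT lay at or above 3.81 CPM and Dp1Tyb at or below 2.16 CPM for Rec8, and the order was the opposite for Six6os1, at up to 16.0 CPM in WT and at least 24.2 CPM in Dp1Tyb.

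The next comparison asked whether the other kleisins differed with Rec8. Rad21 (chromosome 15), the somatic kleisin, had 124 ± 2.39 CPM in WT and 122 ± 5.12 CPM in Dp1Tyb (mean ± SD of 5 mice each). Its values were 127, 124, 126, 125 and 120 CPM in WT and 122, 130, 121, 123 and 116 CPM in Dp1Tyb, and the groups overlapped. The log2 fold change was −0.02 with a 95% interval of −0.10 to 0.05 (edgeR, adjusted p = 0.802). Rad21l, a meiotic kleisin listed here among the regulators, was at 0.653 to 1.19 CPM in WT and 0.666 to 1.44 CPM in Dp1Tyb, with a log2 fold change of 0.54 (95% interval 0.024 to 1.06, edgeR adjusted p = 0.327). Of the summed RPKM (counts scaled to exon length and library size) of these 3 kleisins, Rec8 took 4.67 ± 1.07% in WT and 1.73 ± 0.44% in Dp1Tyb (SD, n = 5 each). Rad21l took 1.53 ± 0.39% in WT and 2.32 ± 0.63% in Dp1Tyb, and the rest was Rad21.

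The SMC subunits form the arms of the ring. Smc1a (chromosome X), the somatic SMC1, had 92.4 ± 5.08 CPM in WT and 93.4 ± 5.65 CPM in Dp1Tyb (mean ± SD of 5 mice each), a log2 fold change of 0.02 (95% interval −0.09 to 0.12, edgeR adjusted p = 0.907). Smc3 (chromosome 19), which pairs with either SMC1, had 61.8 ± 1.89 CPM in WT and 63.2 ± 2.70 CPM in Dp1Tyb, a log2 fold change of 0.03 (95% interval −0.06 to 0.12, edgeR adjusted p = 0.746). Both intervals span 0. Within genotype, the log2 CPM of Smc3 correlated with the choroid plexus level at a Pearson's r of −0.649. Without the 2 libraries farthest from the median of Smc3, r was −0.349. The log2 fold change of Smc3 was 0.0038 with the choroid plexus level as a covariate and 0.010 without the 3 libraries poorest in that RNA. Smc1b (chromosome 15), the meiotic SMC1, had 28, 21, 6, 20 and 6 counts in WT replicates 1 to 5 and 24, 9, 7, 22 and 6 counts in Dp1Tyb replicates 1 to 5. These were 0.871, 0.874, 0.325, 0.605 and 0.280 CPM in WT and 0.550, 0.315, 0.280, 0.666 and 0.274 CPM in Dp1Tyb. The groups overlapped, and Smc1b was at 0.550 to 0.874 CPM in the 3 libraries poorest in choroid plexus RNA. It was also in that range in WT replicate 1, at 0.871 CPM, and in WT replicate 4, at 0.605 CPM. Its log2 fold change of −0.49 had a 95% interval of −1.27 to 0.29 (edgeR, adjusted p = 0.559). With the choroid plexus level as a covariate it was −1.08 ± 0.32 (SE), with a 95% interval of −1.77 to −0.40, an unadjusted p of 0.0044 and an adjusted p of 0.175 in edgeR. Smc1b thus passed the adjusted threshold in neither fit, but its estimate differed with the covariate. Its coefficient of variation in WT was 48.3%, where counting alone would give 30.6%.

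The STAG subunits bind the kleisin and mark variants of the complex. Stag2 (chromosome X) had 73.9 ± 4.19 CPM in WT and 71.3 ± 6.34 CPM in Dp1Tyb, a log2 fold change of −0.05 (95% interval −0.18 to 0.08, edgeR adjusted p = 0.735). Stag1 (chromosome 9) had 55.7 ± 3.42 CPM in WT and 57.0 ± 4.26 CPM in Dp1Tyb, a log2 fold change of 0.03 (95% interval −0.09 to 0.16, edgeR adjusted p = 0.819). Neither Stag2 nor Stag1 passed the test. Within genotype, the log2 CPM of Stag1 correlated with the choroid plexus level at a Pearson's r of −0.804. Without the 2 libraries farthest from the median of Stag1, r was −0.579. The log2 fold change of Stag1 was −0.032 with the choroid plexus level as a covariate and −0.0016 without the 3 libraries poorest in that RNA. Stag3 (chromosome 5), the meiotic STAG, was at 2.55, 3.08, 2.33, 2.42 and 2.98 CPM in WT and at 3.14, 2.76, 3.08, 2.45 and 2.19 CPM in Dp1Tyb, from 43 to 137 counts. The groups overlapped, and the log2 fold change was 0.04 (95% interval −0.26 to 0.33, edgeR adjusted p = 0.927). Of the summed RPKM of the STAG genes, Stag2 took 63.2 ± 2.35% in WT and 61.8 ± 2.40% in Dp1Tyb, Stag1 33.5 ± 1.93% and 34.8 ± 2.09%, and Stag3 3.30 ± 0.45% and 3.41 ± 0.46% (SD, n = 5 each). The 3 shares moved by less than their spread between mice.

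Nipbl, the loader, and Wapl, the release factor, act in opposite directions on the time that cohesin stays on DNA. Nipbl (chromosome 15) had 62.1 ± 3.53 CPM in WT and 61.3 ± 8.87 CPM in Dp1Tyb (mean ± SD of 5 mice each), a log2 fold change of −0.02 (95% interval −0.20 to 0.16, edgeR adjusted p = 0.933). Among the somatic members Nipbl varied most between the Dp1Tyb mice, with 52.5 CPM in Dp1Tyb replicate 2 and 75.7 CPM in Dp1Tyb replicate 4. Wapl (chromosome 14) had 67.3 ± 2.14 CPM in WT and 68.9 ± 3.89 CPM in Dp1Tyb, a log2 fold change of 0.03 (95% interval −0.06 to 0.13, edgeR adjusted p = 0.751). Neither gene passed the test.

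Over the 9 members other than Rec8, 0 were called in either direction by edgeR, beside 1.11% called over all 17237 genes tested. An unadjusted p under 0.05 was found for 0 of the 9, beside 14.4% of all genes tested. Limma-voom called 0 of the 9, and DESeq2 called 0 of the 8 for which it gave an adjusted p, Smc1b being the exception. All 9 passed the filter on low counts. A total of 5 had positive and 4 negative estimates, with a median log2 fold change of 0.02, beside −0.0041 for all genes tested. For the 7 somatic members, with 957 to 5338 counts per library, the 95% intervals together ran from 0.871 to 1.12 times the WT level. The groups overlapped in all 9, and did not overlap in 3.68% of all genes tested. Rec8 is left out of this count, since it was chosen on this contrast.

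**Figure D3:**
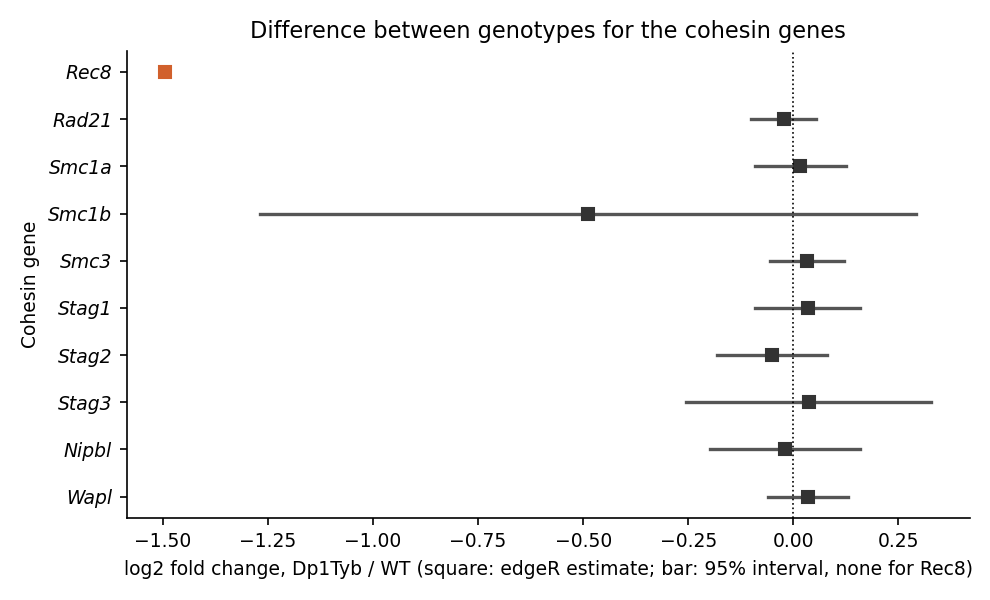
log2 fold change of the 10 cohesin genes in Dp1Tyb over WT, with squares for the edgeR estimates and bars for 95% intervals. No interval is drawn for Rec8, at −1.49, which was chosen on this contrast, and the intervals of the other 9 genes include 0.

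The genes were then ordered by level per length, as mean RPKM over the 10 libraries. Rad21 had 29.2 RPKM, Smc1a 16.1, Smc3 11.3, Wapl 10.3, Stag2 8.78, Nipbl 6.55 and Stag1 4.78. Rec8 followed with 0.994, Stag3 with 0.471 and Smc1b with 0.125 RPKM. The ranges over the libraries overlapped between Smc3 and Wapl, between Stag2 and Nipbl and between Rec8 and Stag3, and the other neighbours in this order did not overlap. The 7 somatic members thus lay above the 3 meiotic ones. In WT, Rec8 was at 0.964 to 1.85 RPKM and Stag3 at 0.407 to 0.537 RPKM, so Rec8 was above Stag3 in every library. In Dp1Tyb the ranges overlapped, at 0.383 to 0.736 RPKM for Rec8 and 0.382 to 0.548 RPKM for Stag3.

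The regulators of cohesin were examined next. The list held 20 genes: the meiotic kleisin Rad21l and genes that act on cohesin, for example to load, acetylate, protect, cleave or stall it. Of the 20, 13 passed the filter on low counts and 0 were called by edgeR or limma-voom. DESeq2 called 0 of the 12 with an adjusted p, which it did not give for Aurkb. By edgeR, 1 of the 13, Rad21l, had an unadjusted p under 0.05 and was higher in Dp1Tyb, as were 7.97% of all genes tested. The 13 tested genes had 6 positive and 7 negative estimates and a median log2 fold change of −0.014. The 4 with the highest RPKM were Pds5b, Ctcf, Mau2 and Pttg1, with log2 fold changes of 0.02, 0.0045, 0.01 and −0.02 and standard errors of 0.05, 0.04, 0.04 and 0.08. Pds5b helps WAPL to release cohesin, CTCF stops its loops at bound sites, MAU2 is the partner of NIPBL, and securin, from Pttg1, restrains separase. Separase, from Espl1, cuts the kleisin, and differed by −0.20 ± 0.14 (log2 fold change with SE, adjusted p = 0.537 by edgeR). Aurkb, the kinase of the centromere, was at 0.252 to 0.541 CPM over all libraries, and differed by −0.19 ± 0.26 (log2, SE, adjusted p = 0.760 by edgeR). The 7 regulators that were not tested, among them Esco2, Cdca5 and Sgo1, which act in dividing cells, had at most 15 counts in any library. The list of dividing-cell markers had a mean level of 0.42 to 1.19 log2 CPM over the 10 libraries.

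Condensin and the Smc5/6 complex, the other SMC rings, showed no call either. All 15 genes were tested and 0 were called by edgeR or limma-voom, nor by DESeq2 among the 14 with an adjusted p. By edgeR, 3 of the 15 had an unadjusted p under 0.05, beside 14.4% of all genes tested. All 3 were higher in Dp1Tyb, a direction in which 7.97% of all genes tested had such a p. These were Nsmce3 at 0.16 ± 0.06 (log2 fold change and SE, adjusted p = 0.224 by edgeR), Nsmce2 at 0.14 ± 0.05 (adjusted p = 0.279) and Smc2 at 0.18 ± 0.08 (adjusted p = 0.320). Nsmce2 is the SUMO ligase of the Smc5/6 complex, and Nsmce3 is one of its MAGE-family subunits. Ncaph2, a kleisin of condensin II, was at 74.2 to 84.9 CPM in WT and 81.8 to 86.9 CPM in Dp1Tyb, with a log2 fold change of 0.07 ± 0.04. Its exons share bases with Sco2 and Tymp on the other strand, and the strand setting of the counting is not given in the sources used here. Ncaph, the kleisin of condensin I, had 0.21 ± 0.17, and Nsmce1 had 0.03 ± 0.07. Over the 15 genes, 11 estimates were positive and 4 negative, with a median of 0.03, beside −0.0041 for all genes tested. The share of positive estimates over all genes was not computed, so the 11 have no baseline.

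The meiosis genes were examined because Rec8 belongs to the meiotic chromosome axis. The list held 37 genes of the axis, the synaptonemal complex, recombination and meiotic entry, of which 36 had a row in the count table and 20 passed the filter on low counts. The other 16 had at most 16 counts in any library, and Hormad1 and Terb2, named after their values were seen, had no count in any library. A single gene was called by edgeR, Six6os1, and it was higher in Dp1Tyb, beside 0.87% called higher over all genes tested. Of the 20 tested genes, 10 had positive and 10 negative estimates, with a median log2 fold change of 0.00097.

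Six6os1 encodes a protein of the central element of the synaptonemal complex, which joins paired chromosomes in meiosis. It lies on the minus strand of chromosome 12, at positions 72881109 to 72940774, and is listed as ENSMUSG00000021098. Its level was 14.6, 18.3, 11.6, 16.0 and 13.7 CPM in WT replicates 1 to 5 and 29.8, 24.8, 26.5, 31.3 and 24.2 CPM in Dp1Tyb replicates 1 to 5. The groups did not overlap, and all 5 Dp1Tyb libraries were above the highest WT library, WT replicate 2. The means were 14.8 ± 2.52 CPM in WT and 27.3 ± 3.11 CPM in Dp1Tyb (mean ± SD of 5 mice each). The log2 fold change was 0.88 ± 0.11 (SE, edgeR adjusted p = 0.00072), or 1.84 times the WT level. Six6os1 was higher in the libraries poor in choroid plexus RNA within each genotype, at 18.3 CPM in WT replicate 2 and 29.8 and 31.3 CPM in Dp1Tyb replicates 1 and 4. In the 7 other libraries it was between 11.6 and 16.0 CPM in WT and between 24.2 and 26.5 CPM in Dp1Tyb. The log2 fold change was 0.83 ± 0.10 (edgeR adjusted p = 0.00077) without the 3 libraries and 0.75 ± 0.08 (edgeR adjusted p = 9.4e-05) with the choroid plexus level as a covariate. The 5′ end of this annotated span of Six6os1 overlaps Six6, a homeobox gene on the other strand, which had at most 1 count in any library. The promoter window printed above, at positions 72917716 to 72918015, was placed by a different start site, from RefSeq. That window lies within the span of Six6os1 and outside Six6.

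Other named genes of the list did not pass the test. Sun1, which tethers telomeres to the nuclear envelope, Ythdc2, an RNA helicase of meiotic entry, and Mlh3, a mismatch repair protein of crossovers, had log2 fold changes of 0.0082, 0.05 and 0.04, with standard errors of 0.04, 0.07 and 0.06. Mei1, needed for meiotic double-strand breaks, was at 1.35 to 2.49 CPM in WT and 0.958 to 1.79 CPM in Dp1Tyb. Its log2 fold change was −0.51 ± 0.21 (SE), with an unadjusted p of 0.033 and an adjusted p of 0.303 in edgeR. Iho1, which acts in the same step, had 0.41 ± 0.30 (SE, edgeR adjusted p = 0.562).

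**Figure D4:**
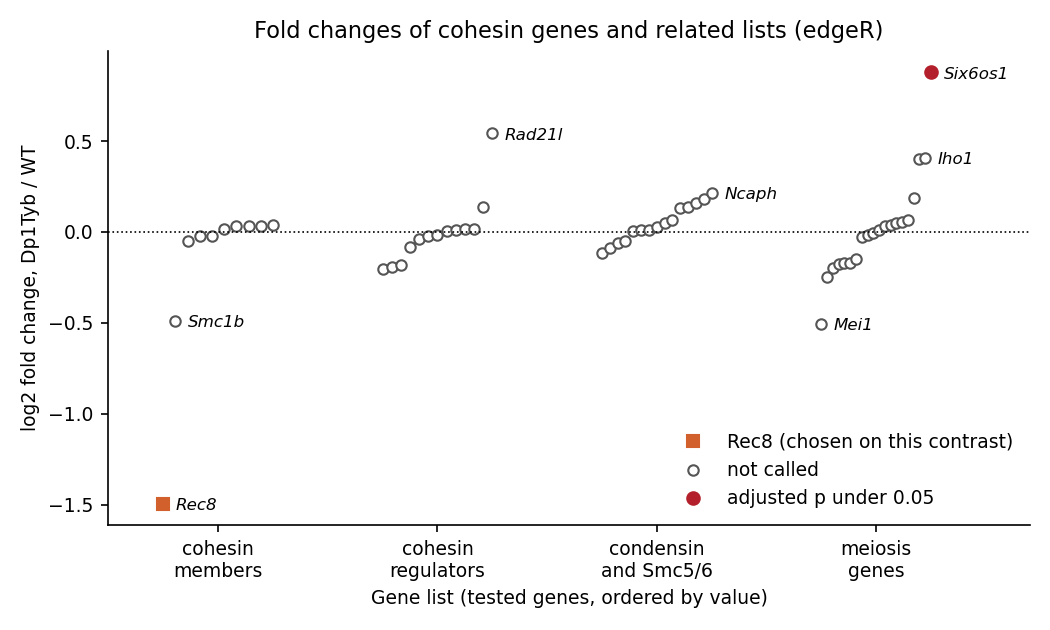
log2 fold change in Dp1Tyb over WT of each tested gene of 4 lists, ordered by value within a list. Open points did not pass the test, the filled circle is Six6os1 at 0.88, and the square is Rec8 at −1.49, which was chosen on this contrast.

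The study asked whether changed genes cluster along chromosomes, so the genes around Rec8 were compared. It used the direction and size of fold changes of adjacent expressed genes, called or not, and found clustering on many chromosomes. Counting called genes around 1 chosen gene is a different measure and does not test that finding. Within 100 kb of Rec8 there were 21 genes in the count table, of which 17 were tested and 0 were called by edgeR or limma-voom, beside 1.11% of all genes tested by edgeR. DESeq2 called 0 of the 15 with an adjusted p. Their log2 fold changes ran from −0.31 to 0.35, with 8 positive and 9 negative and a median of −0.018. The annotated span of Ipo4, an importin gene on the other strand, begins 4 bases past the end of Rec8, and Ipo4 had 102 CPM in WT and 106 CPM in Dp1Tyb, a difference of 0.05 ± 0.04 (log2, SE, adjusted p = 0.594 by edgeR). Irf9, a transcription factor of the interferon response, ends 8006 bases before Rec8 and differed by 0.02 ± 0.08 (log2, SE, adjusted p = 0.936 by edgeR). Both genes next to Rec8 thus had intervals that include 0, at −0.04 to 0.15 for Ipo4 and −0.15 to 0.19 for Irf9. Irf9 shares 123 exon bases with Rnf31 on the same strand, so the counts of this pair are uncertain. Ipo4 shares 2583 exon bases with the annotated gene Gm49378 on the same strand, but Gm49378 has no row in the count table.

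By edgeR, 2 of the 17 neighbours had an unadjusted p under 0.05, 1 in each direction, a share no larger than the 14.4% of all genes tested. Dcaf11, a substrate receptor of a ubiquitin ligase, differed by −0.10 ± 0.03 (log2, SE, edgeR unadjusted p = 0.0085, adjusted p = 0.184), and its groups did not overlap, at 82.5 to 86.6 CPM in WT and 75.0 to 80.8 CPM in Dp1Tyb. Its exons share bases with A730061H03Rik and Gm15932 on the other strand, which had at most 2 and 18 counts. Psme2, a subunit of the proteasome activator PA28, had 0.16 ± 0.07 (SE, unadjusted p = 0.029, adjusted p = 0.290), and its partner Psme1 had 0.17 ± 0.09 (adjusted p = 0.418). The other named neighbours were Tm9sf1, Rnf31, Tssk4, Mdp1, Emc9, Nedd8 and Gmpr2, the last pair sharing exon bases on opposite strands, and their log2 fold changes were −0.095, −0.018, 0.35, 0.02, −0.029, −0.064 and 0.09. Tssk4 had at most 40 counts in a library and a 95% interval of −0.16 to 0.86, and the other estimates were smaller than 0.10 in size.

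**Figure D5:**
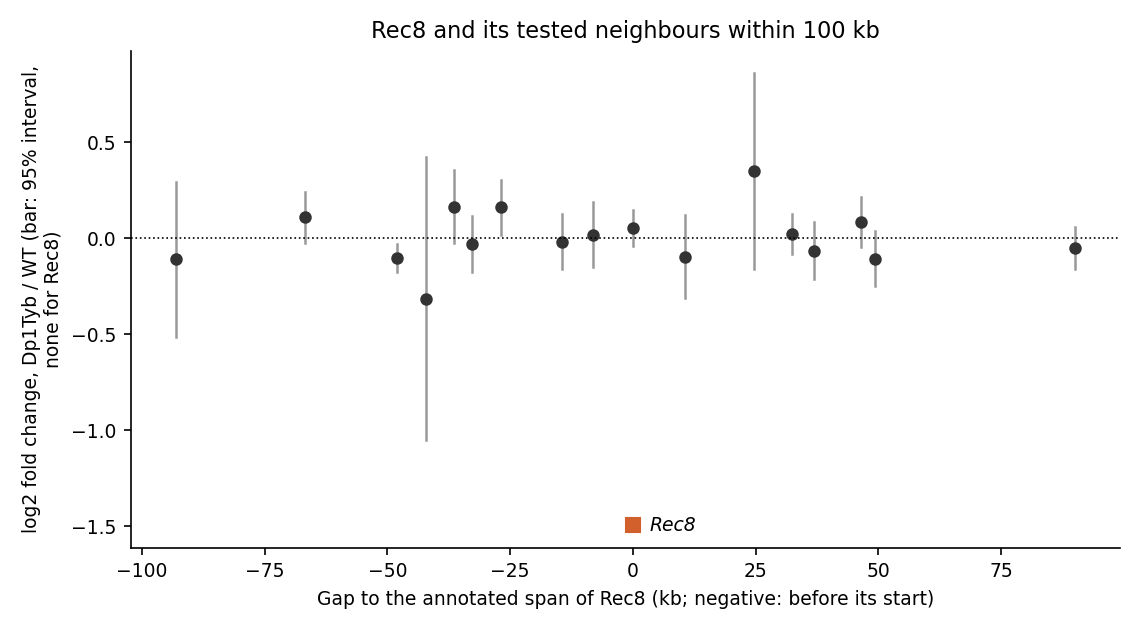
log2 fold change in Dp1Tyb over WT of Rec8 (square) and its 17 tested neighbours (points with 95% intervals) against the gap to Rec8 in kb, negative before its start. The neighbours lie between −0.31 and 0.35, and Rec8 at −1.49 is drawn with no interval.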

How the data were processed

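RNA was measured in 10 hippocampi, 5 WT and 5 Dp1Tyb, grouped by the genotype in the labels. Stranded poly(A) libraries were sequenced as 75 base paired ends. The authors deposited raw counts per Ensembl gene, which they made by trimming adapters with Trim Galore, mapping to GRCm38 with TopHat2 2.0.12, discarding reads with several alignments and counting with htseq-count. The strand setting and annotation release are not given in the sources used here, so overlapping genes are uncertain, and discarded reads lower genes with near-identical copies. The deposited table of normalized counts and the authors' own DESeq2 comparison (fold changes and p-values) were not used.

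From the counts, edgeR 4.0.16 in R 4.3.3 was run on all 10 samples with TMM factors, filterByExpr (17237 of 43629 genes kept), a quasi-likelihood F-test and Benjamini-Hochberg adjustment over all genes tested, and genes with an adjusted p under 0.05 were called. Intervals are at 95%. CPM used TMM-scaled totals, RPKM the union exon length, and log2 CPM a prior count of 2. Total counts of 18227684 to 43692270 set the precision of low genes such as Smc1b. Positions came from GENCODE M21 (GRCm38), which held 42462 of the 43629 IDs, and promoters from RefSeq (GRCm38.p6). No batch or date is labelled, so no within-batch values were possible. The fit was tested on simulated data.

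The members and lists were chosen with earlier results of these data known. Named were all members, and of each list each called gene, the 4 with the highest mean RPKM and the 3 with the largest absolute log2 fold change among those tested. Also named were the 12 nearest tested protein-coding neighbours of Rec8, the 5 genes most correlated with Rec8 and with Rad21 within genotype (mean of at least 1 CPM; 1 of them is not reported here), and the 2 next largest decreases among called genes outside the duplicated segment. Alternatives were DESeq2 1.42.0, limma-voom (limma 3.58.1), DESeq2 size factors (RLE), TMM factors from genes outside the duplicated segment, no filter on low counts, a replicate block, the choroid plexus list as a covariate, leaving out each library and, added after seeing the data, leaving out the 3 libraries lowest in that list.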

Additional observations from a re-analysis of the deposited data

How the results depend on the processing

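Across the 18 alternatives the counts of called genes did not change: 0 among the other cohesin members, the regulators, the condensin and Smc5/6 genes and the Rec8 neighbours, and 1 meiosis gene. Low genes had no adjusted p in some of them: Smc1b had none with DESeq2 or without the 3 libraries lowest in the choroid plexus list, and Aurkb none in these or without WT replicate 4 or Dp1Tyb replicate 4. DESeq2 gave no adjusted p for 1 condensin gene, 2 meiosis genes and 2 neighbours, and 1 neighbour was untested in 5 of the fits that left out 1 library and without the 3 libraries. The log2 fold change of Rec8 ranged from −1.64 to −1.25, and from −1.64 to −1.39 when 1 library was left out. That of Six6os1 ranged from 0.75 to 0.96, with adjusted p-values from 1.4e-12 (DESeq2) to 0.0037 (edgeR without WT replicate 1). Over all genes tested, the 191 calls of edgeR became 507 with DESeq2, 315 with the replicate block, 108 without the 3 libraries lowest in the choroid plexus list, and 105 to 218 when 1 library was left out, at 105 when WT replicate 4 or Dp1Tyb replicate 2 was dropped, 111 for Dp1Tyb replicate 3 and 127 for WT replicate 5. The cause of these shifts in the total was not tested. The values do not settle whether replicate numbers pair the samples. Same-numbered WT and Dp1Tyb libraries deviated together with correlations from −0.068 to 0.275, over 0.1 in 3 of 5 pairs. Of the 5 numbers, 1 correlated best with itself. With the replicate block, Rec8 was at −1.49.

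Counts limit the meiotic members: Smc1b had 6 to 28 counts per library and its log2 fold change ranged from −1.08 (choroid plexus covariate) to −0.30 over 17 alternatives. Small estimates of genes that were not called changed sign in 58 cases, none with a change of call, and the cause was not tested. With the choroid plexus covariate these were Ctcf (−0.0028), Mau2 (−0.0099), Mdp1 (−0.015), Pds5b (−0.012), Pttg1 (0.054), Smc1a (−0.0051), Stag1 (−0.032), Stag3 (−0.013), Sun1 (−0.023), Tm9sf1 (0.023) and Ythdc2 (−0.012). Without the 3 libraries lowest in that list they were Ctcf (−0.016), Emc9 (0.041), Irf9 (−0.071), Mau2 (−0.027), Mdp1 (−0.0051), Nedd8 (0.0098), Pds5b (−0.012), Pttg1 (0.057), Smc1a (−0.0073), Stag1 (−0.0016), Sun1 (−0.025) and Ythdc2 (−0.026). Leaving out 1 library gave ranges across 0 for Smc1a (−0.021 to 0.037), Stag1 (−0.0045 to 0.067), Stag3 (−0.024 to 0.10), Nipbl (−0.11 to 0.030), Wapl (−0.0021 to 0.052), Pds5b (−0.031 to 0.038), Ctcf (−0.021 to 0.019), Mau2 (−0.0042 to 0.032), Pttg1 (−0.066 to 0.043), Nsmce1 (−0.0064 to 0.068), Sun1 (−0.012 to 0.034), Ythdc2 (−0.023 to 0.10), Mlh3 (−0.0036 to 0.061), Irf9 (−0.019 to 0.060), Rnf31 (−0.060 to 0.031), Mdp1 (−0.0059 to 0.049) and Emc9 (−0.070 to 0.0024).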

Other observations

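The genes whose pattern across the libraries was most like that of Rec8 were named from 15099 tested genes with a mean of at least 1 CPM, by Pearson's r of the log2 CPM deviations from the genotype means over 10 libraries. Among the 5 highest were Pls1 (r = 0.946), Efcab1 (0.939), Gm21833 (0.936) and Capsl (0.932), with Spearman's rho of 0.952, 0.964, 0.891 and 0.939. Without the 2 libraries farthest from the median, r was 0.922, 0.892, 0.879 and 0.872. None of these 4 genes was called between the genotypes by edgeR, with log2 fold changes of −0.0062, −0.017, −0.082 and −0.051. Like Rec8, they share the libraries and the choroid plexus level of each mouse. Their own r with the choroid plexus list was 0.660, 0.738, 0.603 and 0.806, beside 0.640 for Rec8. Without the same 2 libraries, the r of Rec8 with that list was 0.415, and that of the 4 genes was not computed.

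The same measure named Fam217b (r = 0.918), Prkar2b (0.902), Atp6ap1 (0.896), Ppm1d (0.891) and Slc35g2 (0.889) as most like Rad21. For Ppm1d, r fell to 0.567 without the 2 farthest libraries, and for the other 4 it stayed at 0.749 to 0.933. None of these 5 was called, with log2 fold changes of 0.0087, −0.086, 0.05, 0.0016 and 0.10. No gene was named for both Rec8 and Rad21. These values describe likeness over 10 libraries out of many candidates and carry no p.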
